A study of Mus musculus with 9 samples.

Results

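Fully methylated CpG islands were stretches of CpG-dense DNA that stayed highly methylated in mouse splenic B cells of every Kmt2d genotype studied. Islands were defined from the CpG positions of the autosomes by a running score that gains 17 at a CpG and takes -1 at any other base. The maximal segments were kept if they exceeded 200 bp in length and had 6 or more CpGs in each 100 bp on average. An island counted as fully methylated when it had 30 or more CpG reads in each library and a methylation level of 80% or more, averaged over the 3 libraries with equal weight. The level is the share of CpG reads that call the cytosine methylated. Of 22530 autosomal islands, 16376 had enough reads, and 2032 of these (12.4%) were fully methylated. Another 621 lay between 20 and 80% and are called partly methylated, and 13723 lay below 20% and are called unmethylated. The levels themselves chose the islands, so they are given as a description and not as a test.

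CpG islands are mostly free of methylation in mammalian cells, because promoters bound by transcription factors and marked by H3K4 trimethylation keep the DNA methyltransferases away. The minority that are methylated comprise promoters silenced in somatic cells, above all those of germline genes, and CpG-dense stretches within genes and between them, where methylation is laid down along with transcription or by default. KMT2D is a histone methyltransferase that places H3K4 monomethylation at enhancers and at the flanks of promoters.

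The assay was whole-genome bisulfite sequencing, in which unmethylated cytosines are converted and methylated ones are read as cytosine. The mice were homozygous (HOM) or heterozygous (HET) for the Kmt2d mutation Ile5482Asn, or wild type (WT), and received no treatment. B cells were purified from spleen by magnetic depletion of other cells. Age, sex and strain are not given in the sources used here, and the names of the HOM and HET columns, unlike that of WT, carry the label ENU, a chemical mutagen. The study asked how DNA methylation in B cells differs between the 3 genotypes.

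Each genotype had 1 set of counts, here called its library, and no difference has a replicate check. Mean coverage was 9.85 reads per CpG in HOM, 12.9 in HET and 9.18 in WT. Within fully methylated islands it was 4.65 in HOM, 5.65 in HET and 4.04 in WT, against 10.01, 11.5 and 8.42 in unmethylated islands, and the median fully methylated island held 108, 133 and 97 CpG reads. The level over all CpGs was 72.3% in HOM, 75.6% in HET and 76.0% in WT. In the open sea, the CpGs more than 4000 bp from any island, it was 78.1% in HOM, 80.9% in HET and 81.6% in WT, so that the HOM library was lower in the genome as a whole. On the mitochondrial chromosome, which is little methylated and gauges unconverted cytosines, the level was 0.556% in HOM, 0.607% in HET and 0.492% in WT. Markers of cell types were read at gene starts, and not every listed gene was read. The median level of 4 of the 8 listed B cell genes was 15.8% in HOM, 14.8% in HET and 14.6% in WT. Single B cell genes lay between 0.281 and 38.9%. The starts of 5 of 8 listed T cell genes had medians of 54.6% in HOM, 76.3% in HET and 58.1% in WT. Among them only Cd5 was lower in HET (44.3%) than in HOM (53.6%). The medians were 52.2, 59.7 and 36.5% for 5 of 6 myeloid genes and 65.9, 60.6 and 62.9% for 5 of 6 erythroid and platelet genes. Those of all 4 NK cell genes were 74.7, 71.1 and 70.8%. The T cell and myeloid medians differed between libraries by more than those of B cell genes, and the part of cell composition in the results below was not tested.

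The promoters of 4 germline genes whose transcription start lies inside a fully methylated island are shown, because they keep many CpGs and most of these were methylated. Each runs 5′ to 3′ from 250 bases before the start to 50 after it, with the CpGs in capitals (RefSeq, GRCm38.p6).

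Fkbp6: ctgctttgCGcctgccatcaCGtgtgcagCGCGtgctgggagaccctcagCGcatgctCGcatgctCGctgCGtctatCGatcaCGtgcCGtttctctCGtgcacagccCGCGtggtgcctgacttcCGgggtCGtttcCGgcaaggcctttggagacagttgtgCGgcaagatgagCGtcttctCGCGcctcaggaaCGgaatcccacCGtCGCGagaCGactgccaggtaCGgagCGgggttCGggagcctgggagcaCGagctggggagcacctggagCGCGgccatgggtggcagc
Mov10l1: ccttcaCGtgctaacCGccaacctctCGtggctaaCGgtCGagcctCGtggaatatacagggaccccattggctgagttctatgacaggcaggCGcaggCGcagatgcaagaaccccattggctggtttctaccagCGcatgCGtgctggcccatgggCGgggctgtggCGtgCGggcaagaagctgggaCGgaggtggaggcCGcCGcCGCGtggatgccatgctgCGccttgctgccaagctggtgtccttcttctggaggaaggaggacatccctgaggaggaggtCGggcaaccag
Sycp1: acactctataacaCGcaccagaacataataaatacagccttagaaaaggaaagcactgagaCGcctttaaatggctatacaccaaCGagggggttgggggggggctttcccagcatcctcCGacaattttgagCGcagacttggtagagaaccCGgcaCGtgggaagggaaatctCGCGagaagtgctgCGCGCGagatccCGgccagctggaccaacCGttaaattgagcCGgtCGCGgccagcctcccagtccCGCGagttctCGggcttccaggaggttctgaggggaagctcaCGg
D1Pas1: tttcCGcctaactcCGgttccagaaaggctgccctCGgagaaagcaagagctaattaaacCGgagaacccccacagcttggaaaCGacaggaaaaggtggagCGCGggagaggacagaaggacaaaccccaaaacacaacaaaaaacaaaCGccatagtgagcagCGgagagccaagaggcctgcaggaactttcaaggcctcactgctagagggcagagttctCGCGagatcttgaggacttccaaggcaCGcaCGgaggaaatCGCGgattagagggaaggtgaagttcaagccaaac

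Fkbp6 encodes a chaperone needed for meiosis and for piRNAs, the small RNAs that silence transposons in germ cells. Its promoter (chr5:135349864-135350163, minus strand) holds 32 CpGs and lay almost wholly inside its island, with 292 of 300 bases. Its level was 87.3% in HOM, 87.2% in HET and 94.3% in WT, with 95% Wilson intervals of 82.5 to 91.0, 81.4 to 91.4 and 88.7 to 97.2, so that both mutant intervals overlapped that of WT. These and all later intervals count the CpGs of a read as independent, although 150 bp of a fully methylated island span a median of 11.6 CpGs, and are too narrow for that reason. Mov10l1 encodes an RNA helicase of the piRNA pathway, and its promoter (chr15:88982744-88983043, plus strand) had 294 bases and 20 CpGs, at 90.1% in HOM, 93.5% in HET and 95.7% in WT. Sycp1 encodes the transverse filament of the synaptonemal complex that pairs chromosomes in meiosis. The Sycp1 window (chr3:102936051-102936350, minus strand) lay inside its island for 180 bases, and its 21 CpGs stood at 97.4% in HOM, 95.2% in HET and 95.2% in WT. Pooled over the libraries, every one of those 21 CpGs was at 80% or more, and so were 19 of 20 in Mov10l1, 27 of 32 in Fkbp6 and 10 of 15 in D1Pas1. D1Pas1 encodes a testis RNA helicase, and only 76 bases of its window (chr1:186967166-186967465, plus strand) lay inside the island. The window stood at 78.2% in HOM, 75.8% in HET and 92.0% in WT from 165, 91 and 87 CpG reads, the lowest mutant values of these 4 promoters. Reads fell on different CpGs in the 3 libraries. At bases 105 and 151 WT had 0 reads, where HOM had 10 and 12 and HET had 5 and 6. The pooled levels of the window are thus no like comparison of the libraries. The promoter of Dpep3, a testis membrane dipeptidase gene, also qualified and is not printed. It held neither of the motifs searched, its 12 CpGs stood at 85.3% in HOM, 97.0% in HET and 96.9% in WT, and 11 of them were at 80% or more.

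The short E-box CACGTG and the site TCCCGC were searched on both strands, because they are known from germline promoters bound by a Polycomb complex with MGA, MAX and E2F proteins. CACGTG was found in Fkbp6 at bases 19 and 83, in Mov10l1 at base 5 and in Sycp1 at base 157, counted from the 5′ end. TCCCGC, or its complement, was found in D1Pas1 at base 104 and in Sycp1 at base 253. The letters of CACGTG occurred in 24 of the 51 RefSeq promoters that start in a fully methylated island (47.1%), in 16.7% of the 78 in partly methylated islands, in 11.05% of the 9432 in unmethylated islands and in 7.89% of all 20084 promoters. TCCCGC did not share this order, with 31.4% in fully methylated islands, 48.7% in partly methylated, 44.7% in unmethylated and 26.3% of all promoters. Some of the 51 promoters are alternative starts that share bases. Counted by island, CACGTG occurred in 20 of 45, namely in 11 of the 16 islands at genes of the germline list and in 9 of the 29 others. A match describes the letters in the window and does not show that a protein binds.

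Fully methylated islands were short and only moderately dense in CpGs. Their median length was 294 bp with 24 CpGs, against 352 bp with 32 CpGs in partly methylated and 603 bp with 62 CpGs in unmethylated islands. Median density was 7.73 CpGs per 100 bp in fully methylated, 8.67 in partly methylated and 10.2 in unmethylated islands. Only 58 of the 2032 exceeded 1000 bp, against 2685 of the 13723 unmethylated islands. The longest lay in Plec, which encodes plectin, the giant linker of the cytoskeleton. This stretch (chr15:76176732-76181907) was 5176 bp long and held 343 CpGs, and its level was 93.9% in HOM, 96.6% in HET and 95.01% in WT from 2793, 4374 and 2564 CpG reads. Other long members were a 2010 bp island with 172 CpGs near the 3′ end of Bcl11b, a zinc finger regulator of T cell development, and a 1784 bp island with 166 CpGs in Zfp865, a zinc finger gene. The Bcl11b island stood at 89.4% in HOM, 95.6% in HET and 95.7% in WT, a HOM minus WT difference of -6.31 points (95% Newcombe interval -9.17 to -3.44), and the Zfp865 island at 97.9, 95.1 and 96.8%. The interval of the Bcl11b difference lies below 0, whereas the HOM level of the Zfp865 island was the highest of its 3.

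The limit of 80% fell within a continuum. Just inside it were islands of Wnt3 at a mean of 80.03%, Chst11 at 80.1% and Mrps6 at 80.2%, and just outside it were islands of Gse1 at 79.96%, 1700010I14Rik at 79.8% and Cacna1a at 79.7%. The islands left out for depth were not a random remainder. They numbered 6154, had 0.281 reads per CpG in HOM, 0.357 in HET and 0.248 in WT, were highly methylated where reads existed (mean 87.0% in HOM, 88.0% in HET and 89.0% in WT) and lay between genes in 65.3% of cases. The 2032 islands are therefore those fully methylated islands that the libraries could read.

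Gene bodies held the largest share of the fully methylated islands, and gene starts held few. A body position, more than 1000 bp from either end of a protein-coding gene, applied to 1011 (49.8%), against 1426 (10.4%) of the unmethylated islands. A position within 1000 bp of a gene start applied to 81 (3.99%), against 8965 (65.3%) of the unmethylated islands. A further 664 (32.7%) lay between genes, against 645 (4.70%), while 96 (4.72%) lay within 1000 bp of a 3′ end, 41 (2.02%) at an end of a gene whose strand is not in the tables used here, and 139 (6.84%) in non-coding genes. By midpoint, 1213 (59.7%) were inside a protein-coding gene, compared with 475 (76.5%) of partly methylated and 11619 (84.7%) of unmethylated islands. Overlap with an annotated pseudogene was found for 99 (4.87%), against 63 (10.1%) of partly methylated and 115 (0.838%) of unmethylated islands. Exons and introns were not assigned.

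Within gene bodies, fully methylated islands gathered toward the 3′ end. For 798 body islands whose gene has a known strand, the span was divided into 5 equal segments from the 5′ to the 3′ end, which held 59, 101, 148, 186 and 304 islands. The last segment thus held 38.1% of them and the segment at the 5′ end 7.39%. The 928 unmethylated body islands ran the other way, with 40.6% in the segment at the 5′ end and 13.3% in the last. The median position was 71.1% of the way along the gene for fully methylated, 64.7% for 220 partly methylated and 31.0% for unmethylated islands.

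**Figure D1:**
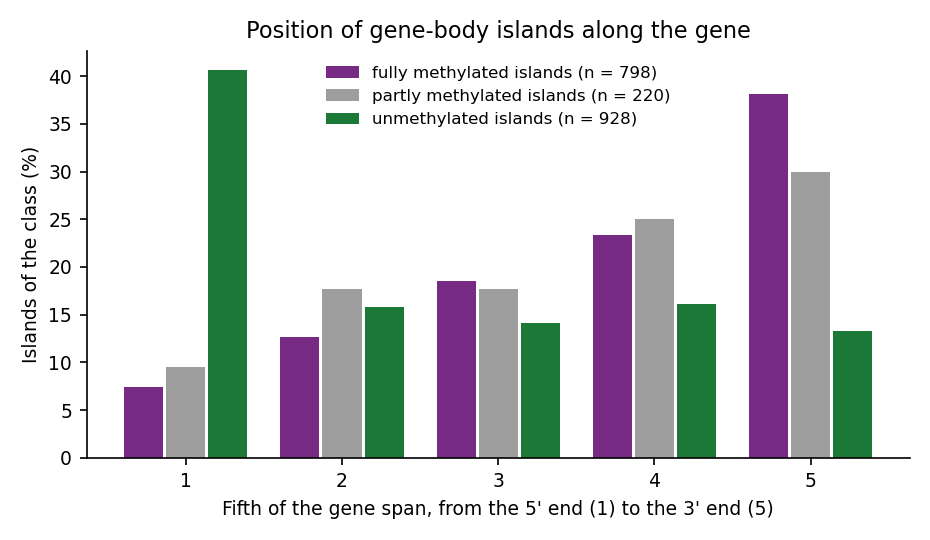
Share of body islands (vertical axis, % of the class) in each of 5 equal segments of the gene span from the 5′ end to the 3′ end (horizontal axis), for fully methylated (n = 798), partly methylated (n = 220) and unmethylated islands (n = 928). Fully methylated islands increase toward the 3′ end to 38.1%, and unmethylated islands are most frequent at the 5′ end with 40.6%.

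Several large genes held more than 1 such island. Of the genes with a fully methylated island, 911 held 1, 116 held 2 and 13 held 3. Fat1, an atypical cadherin, held 8, Zfhx3, a homeobox and zinc finger factor, held 6, and Plec held 5. These 3 genes were singled out after their counts were seen. The mean over the 8 Fat1 islands was 91.5% in HOM, 93.5% in HET and 92.8% in WT, and over the 6 Zfhx3 islands 92.9, 95.7 and 93.9%, so that the HOM level was the lowest in both.

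Of the gene groups listed, germline genes had the highest share of starts in fully methylated islands, and imprinted genes came next. Of 8441 protein-coding genes with a start in a tested island, 46 (0.545%) had that start in a fully methylated one. Of the 34 genes of a list of germline genes known to be silenced by promoter methylation, 16 (47.1%) did, a further 5 (Dazl, Meioc, Piwil1, Tdrd1 and Tex14) started in a partly methylated island, and 13, among them Dmc1, Stag3 and Msh5, started in an unmethylated one. Among 20 imprinted genes, 2 (10%, Mcts2 and Fkbp6, which is on both lists) started in a fully methylated island and 6 (Igf2r, Mest, Nap1l5, Ndn, Nnat and Plagl1) in a partly methylated one. In the other lists with such starts (165 Zfp zinc finger genes, 87 developmental transcription factors and Wnt genes, 30 potassium channel genes, 13 DNA methylation genes, 8 H3K4 methyltransferase genes and others), 0 genes started in a fully methylated island. The lists are no independent evidence, since they were drawn up with results of these data known.

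Mcts2 is an imprinted retrogene that lies in an intron of H13, and its promoter (chr2:152686898-152687197, plus strand) is the one shown here that lay wholly inside a fully methylated island. It is shown because a single CpG within it stood far below most of the others.

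Mcts2: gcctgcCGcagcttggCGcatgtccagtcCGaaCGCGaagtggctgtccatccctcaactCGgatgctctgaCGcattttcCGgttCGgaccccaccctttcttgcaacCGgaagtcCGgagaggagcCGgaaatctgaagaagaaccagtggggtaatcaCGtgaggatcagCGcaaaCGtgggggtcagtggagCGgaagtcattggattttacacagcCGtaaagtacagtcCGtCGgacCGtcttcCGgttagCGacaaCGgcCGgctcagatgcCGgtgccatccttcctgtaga

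The Mcts2 promoter had 25 CpGs at 84.1% in HOM, 78.1% in HET and 88.0% in WT, and its whole island (chr2:152686810-152687230) stood at 88.3, 80.1 and 89.1%. Of 17 CpGs with at least 5 reads pooled over the libraries, 14 were at 80% or more. The lowest, at base 118, was at 25% from 8 reads in HOM, 12 in HET and 0 in WT. HET was the lowest library here, with a HET minus WT difference of -9.07 points (interval -14.5 to -3.43), which did not pass the adjusted test.

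Of the 45 islands at those 46 starts (Btbd18 and Ctnnd1 share 1), 16 were at genes of the germline list and 29 at other genes. Sycp1, Sycp3, Syce1, Syce3 and Tex12 encode parts of the synaptonemal complex. Their levels were between 81.4 and 96.8% in HOM, between 83.6 and 96.6% in HET and between 90.4 and 97.2% in WT. Hormad1, Rec114 and Ankrd31 act in the formation of meiotic DNA breaks, and their islands stood at 97.8, 82.3 and 87.2% in HOM, at 97.1, 87.0 and 82.8% in HET and at 93.2, 89.3 and 93.7% in WT. Ddx4, Mael, Mov10l1 and Tdrd12 belong to the piRNA pathway, and their levels ran from 87.3 to 95.8% in HOM, from 89.5 to 98.2% in HET and from 87.1 to 97.5% in WT. Slc25a31, a sperm mitochondrial carrier, stood at 97.8% in HOM, 90.3% in HET and 94.97% in WT. The order of the libraries thus changed from gene to gene. Krt7, a keratin of simple epithelia, is an example outside the germline, at 92.2% in HOM, 89.8% in HET and 95.8% in WT.

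Over all 45 start islands the median was 90.7% in HOM, 92.7% in HET and 92.3% in WT, and HOM was below WT in 29 and above it in 16. The mean HOM minus WT difference was -2.48 points (counting interval -3.52 to -1.44), the mean HET minus WT difference -0.76 (-1.70 to 0.18), and the mean HOM minus HET difference -1.72 (-2.66 to -0.79). Levels below 80% occurred in 4 islands in HOM, in 0 in HET and in 1 in WT. Against WT, 3 of the 45 start islands were called lower in HOM, where 1.37% of all 16376 tested islands and 3.64% of the fully methylated ones were, meaning that the levels were 10 points or more apart and that Fisher's exact test of the CpG reads (two-sided, Benjamini-Hochberg adjusted) fell below 0.05. At D1Pas1 the level was 77.5% in HOM, 85.2% in HET and 89.4% in WT from 481, 784 and 360 CpG reads (HOM minus WT -11.9 points, Newcombe interval -16.7 to -6.87). Adad2, a testis gene with an adenosine deaminase domain, stood at 73.6% in HOM, 82.5% in HET and 91.7% in WT (-18.2, -25.01 to -10.3). Foxr1, a forkhead gene, stood at 77.3% in HOM, 88.2% in HET and 91.4% in WT (-14.1, -21.0 to -6.41). HET lay between HOM and WT in all 3. That test compares the libraries and not the genotypes, and with the CpG reads of each island reduced to whole reads it called 0 of them.

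**Figure D2:**
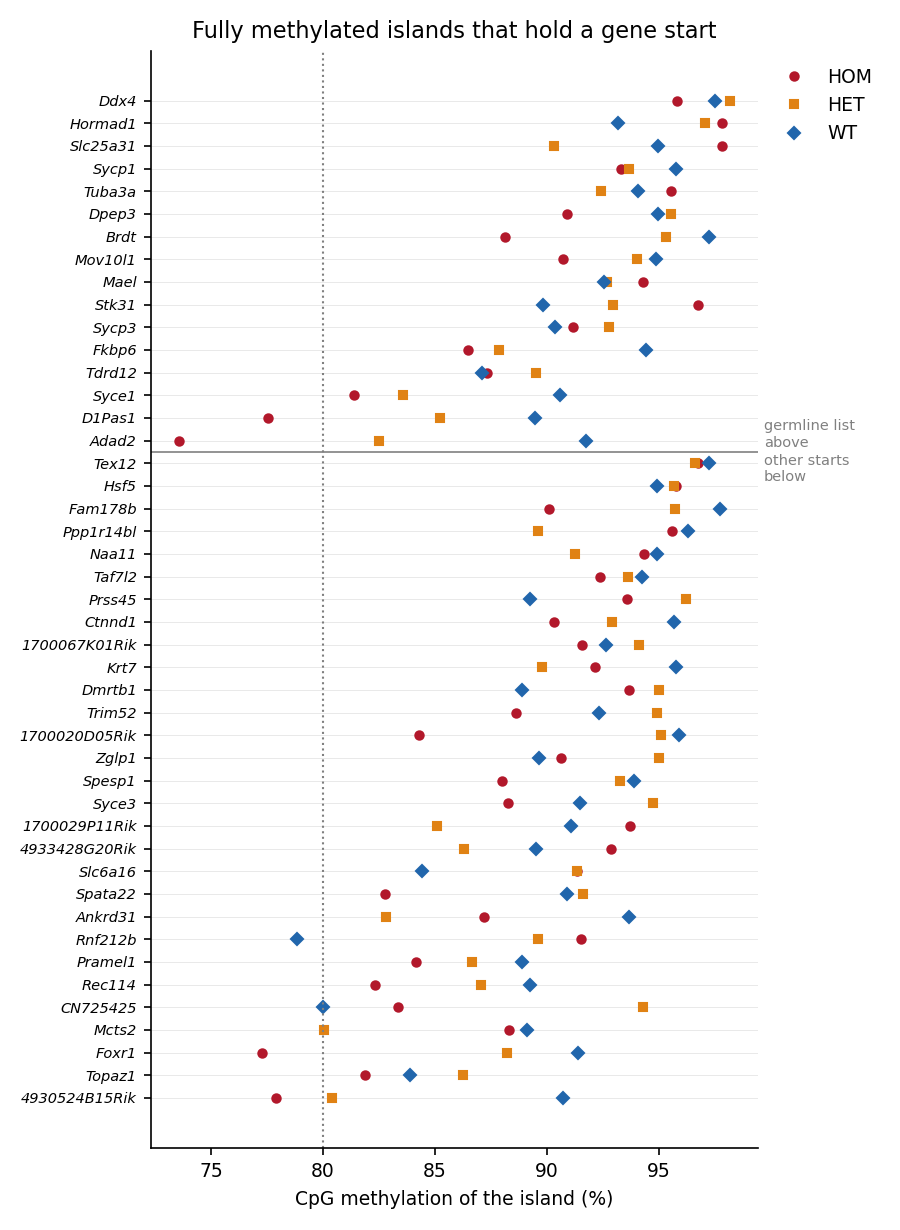
Level (horizontal axis, %) of each of the 45 fully methylated islands that hold a gene start (1 row each, named by the gene), in HOM (circles), HET (squares) and WT (diamonds), with the germline list above the grey line. Most islands lie above the dotted limit of 80% in every library, and the 3 called lower in HOM (D1Pas1, Adad2 and Foxr1) show HOM below 80% and WT near 90%.

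Other gene groups held fully methylated islands in or near their genes. At least 1 fully methylated island was found in or within 1000 bp of 1120 of the 12880 protein-coding genes with a tested island (8.70%). The shares that follow were not adjusted for the length of the genes. Cytoskeletal linker and giant muscle genes had 10 of 29 (34.5%) with 17 islands, atypical cadherins 5 of 10 with 15 islands, and potassium channel genes 14 of 68 (20.6%) with 16 islands. Zinc finger genes named Zfp had 42 of 257 (16.3%) with 46 islands. Of these, 33 were lower in HOM than in WT, as were 62.8% of all fully methylated islands. Against WT, 2 of the 46 were called lower in HOM, where 3.64% of all fully methylated and 1.37% of all tested islands were. Nothing particular to Zfp genes is read from these counts. Collagens had 3 of 18 with 4 islands, voltage-gated calcium channels 4 of 22 with 4, Notch and EGF repeat genes 4 of 21 with 7, large matrix genes 3 of 31 with 3, and developmental transcription factors with Wnt genes 15 of 180 with 20. Clustered protocadherins had 8 of 43, but their spans overlap and only 3 islands underlie them, and olfactory receptors had 1 of 2. Of the B cell identity genes with an island, 0 of 7 had a fully methylated one. Among H3K4 methyltransferases and KMT2D partners, Setd1b and Kmt2b did (2 of 15), and among DNA methylation genes Mbd3, a methyl-CpG binding family protein, and Tet3, a 5-methylcytosine oxidase (2 of 16). Kmt2d itself had no fully methylated island.

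The limit of 80% fixes high levels in these groups, so that the values of single islands are a description. The Kmt2b island stood at 92.6% in HOM, 97.4% in HET and 93.5% in WT, and the best covered Setd1b island at 96.5, 98.7 and 96.9%. Mbd3 had 94.8% in HOM, 95.8% in HET and 91.8% in WT. An island of Kcng1, a potassium channel subunit, was lower in HOM with 83.7%, against 91.8% in HET and 93.6% in WT (HOM minus WT -9.91, -14.2 to -5.74), just short of the 10 points required for a call. The island at the 3′ end of Col6a2, a chain of collagen VI, was called, with 84.8% in HOM, 94.9% in HET and 97.8% in WT, while a second island of that gene, in its body, stood at 95.6, 93.9 and 97.3%. The median HOM minus WT difference was -3.26 points over 24 islands at germline genes, -2.27 over 15 at atypical cadherins, -1.80 over 46 at Zfp genes, -1.47 over 16 at potassium channel genes, -0.36 over 17 at cytoskeletal genes and 1.16 over 7 at Notch and EGF repeat genes, against -1.67 over all 2032.

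Compared between libraries without scaling, fully methylated islands were slightly less methylated in HOM, and the direction turned when levels were scaled to equal open sea. The mean level was 91.1% in HOM, 92.7% in HET and 93.0% in WT, with standard deviations between islands of 5.70, 4.64 and 5.08 points. The mean difference was -1.92 points for HOM minus WT (counting interval -2.10 to -1.75), -0.29 for HET minus WT (-0.45 to -0.13) and -1.63 for HOM minus HET (-1.80 to -1.46). Scaled to equal open sea, without a cap at full methylation, these means were 2.08, 0.47 and 1.61 points. With the unmethylated shares so scaled, an alternative added after the data were seen, they were -0.52, -0.036 and -0.49. Without scaling, HOM was below WT in 1276 islands (62.8%), and HOM was the lowest of the 3 libraries in 954 (46.9%), HET in 565 (27.8%) and WT in 510 (25.1%). The standard deviation of the HOM minus WT difference between single islands was 6.57 points. A level of 95% or more was reached by 512 islands (25.2%) in HOM, 720 (35.4%) in HET and 846 (41.6%) in WT. Levels under 80% occurred in 92 islands in HOM, 41 in HET and 54 in WT, since the limit applied to the mean of the 3. The HOM minus WT mean was negative on each of the 19 autosomes, between -2.94 and -0.64 points, and the HET minus WT mean was negative on 14. HOM minus WT and HET minus WT share the WT library, and no difference between genotypes can be told apart from a difference between single libraries.

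**Figure D3:**
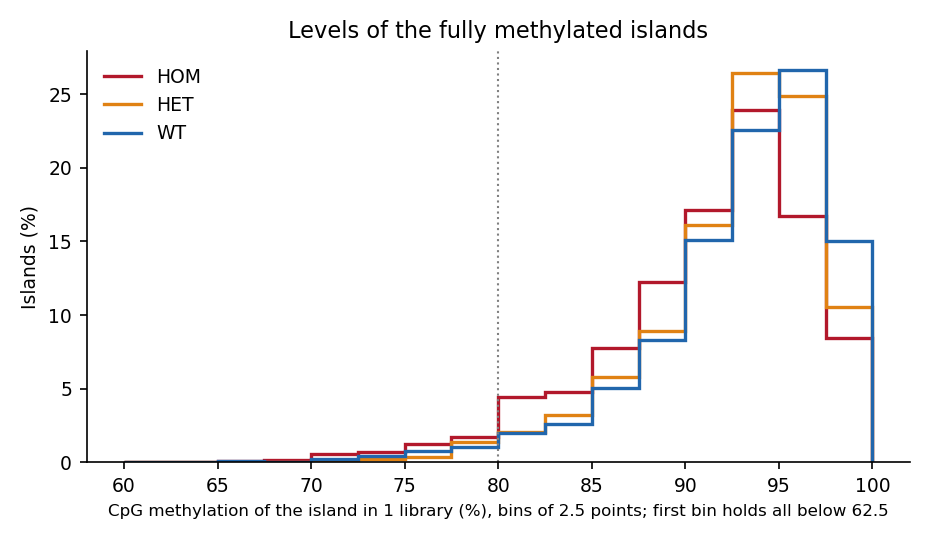
Share of the 2032 fully methylated islands (vertical axis, %) by their level in 1 library (horizontal axis, %, bins of 2.5 points) in HOM, HET and WT. Above 95% the HOM line is the lowest, with 25.2% of the islands, against 35.4% in HET and 41.6% in WT, and the dotted line marks the limit of 80% that applied to the mean of the 3 libraries. The levels are not scaled, and scaling to equal open sea, without a cap at full methylation, turns the mean HOM minus WT difference to 2.08 points.

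The mean HOM minus WT difference was nearer 0 in these islands than in windows of other DNA of like level. By counting intervals alone, this was less clear at matched level for HOM minus HET and for HET minus WT. Windows of 300 bp in the open sea with a mean level of 80% or more had a mean HOM minus WT difference of -3.37 points, and those with at least 10 CpGs one of -2.74. The island difference was thus 1.45 points nearer 0 than that of all such windows (counting interval of this contrast 1.27 to 1.63) and 0.82 points nearer 0 than that of the CpG-rich ones (0.64 to 0.9998). At a mean level of 80 to 85% the difference was -2.84 points in islands and -4.45 in windows, at 85 to 90% it was -3.08 and -3.91, at 90 to 95% it was -1.97 and -2.65, and at 95 to 100% it was -0.78 and -1.13. The islands were nearer 0 than the windows at each level, and the counting interval of the contrast excluded 0 in all 4. These intervals leave out the spread between islands, which exceeded counting error. The standard deviation of HOM minus WT between islands was 12.4 points at 80 to 85%, against 5.77 from counting. At 85 to 90% it was 8.76 against 5.10. Whether the contrasts exceed that spread was not tested. For HOM minus HET the contrast was 1.03 points over all levels (0.87 to 1.2003), but at matched level its interval included 0 at 80 to 85% (0.68, -0.28 to 1.64), at 85 to 90% (0.27, -0.23 to 0.77) and at 95 to 100% (0.13, -0.12 to 0.38), and excluded it at 90 to 95% (0.23, 0.012 to 0.46). For HET minus WT the corresponding contrast over all levels was 0.42 points (0.25 to 0.58). At matched level its interval included 0 at 80 to 85% (0.94, -0.034 to 1.91) and at 95 to 100% (0.22, -0.024 to 0.47). It excluded 0 at 85 to 90% (0.56, 0.074 to 1.04) and at 90 to 95% (0.44, 0.22 to 0.65). The unmethylated share, without matching for level, was 1.31 times as high in HOM as in WT in the islands and 1.19 times as high in the whole open sea. The whole open sea includes DNA below 80%, so these ratios do not compare the islands with the windows above. Pooled levels were 86.9% in HOM and 90.3% in WT in the windows of 80% or more, against 90.9% and 93.0% in the islands.

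**Figure D4:**
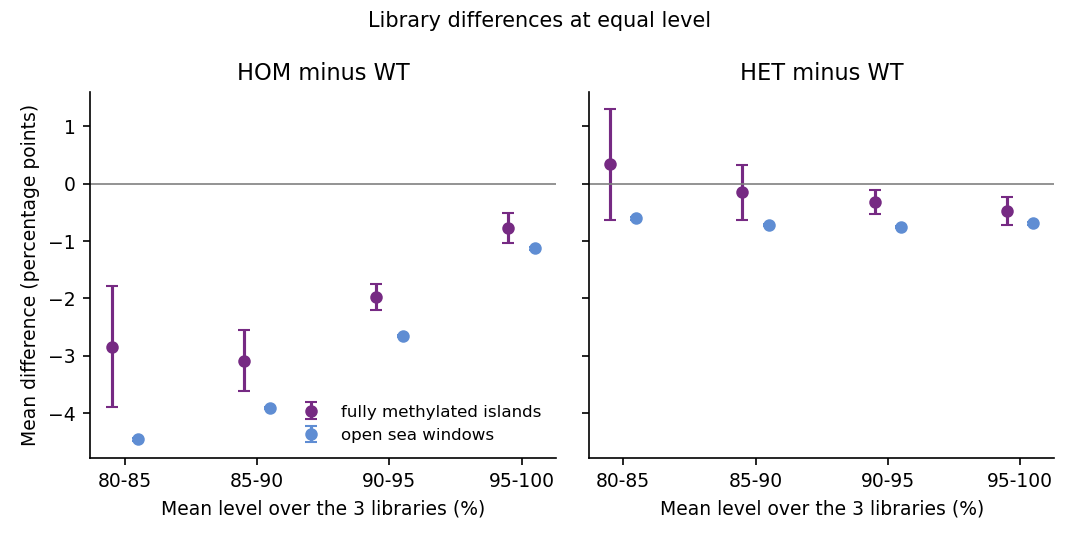
Mean difference in level (vertical axis, percentage points, bars are 95% counting intervals) for HOM minus WT (left) and HET minus WT (right), for fully methylated islands and for 300 bp windows of the open sea, by mean level over the 3 libraries (horizontal axis, %). For HOM minus WT the islands lie nearer 0 than the windows at each level, from -2.84 against -4.45 points at 80 to 85% to -0.78 against -1.13 points at 95 to 100%.

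The difference also varied with position. Islands in gene bodies had a mean HOM minus WT difference of -2.17 points (n = 1011), and those between genes one of -1.27 (n = 664), a contrast of -0.90 points with a counting interval of -1.32 to -0.47. Mean levels were 91.2% in HOM and 93.3% in WT in bodies, and 91.5% in HOM and 92.8% in WT between genes. Islands near gene starts (-1.77, n = 81) and near 3′ ends (-2.50, n = 96) did not differ from body islands beyond counting error, with contrasts of 0.40 (-0.42 to 1.21) and -0.33 (-1.02 to 0.36) points. Islands in non-coding genes had -2.71 points (n = 139). For HET minus WT, the contrast of body with intergenic islands was -0.27 points (-0.67 to 0.12).

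The share of fully methylated islands that passed the call was between 0.295 and 3.64%, depending on the comparison and direction. Against WT, 74 fully methylated islands (3.64%) were called lower and 13 (0.640%) higher in HOM, where 1.37% of all 16376 tested islands were called lower and 0.733% higher. HET had 14 lower (0.689%) and 22 higher (1.08%) than WT, where the shares over all tested islands were 0.458% and 0.782%. Against HET, HOM had 57 lower (2.81%) and 6 higher (0.295%), where the shares over all tested islands were 1.26% and 0.519%. Most tested islands are unmethylated and have no room to fall by 10 points, and fully methylated islands have little room to rise, so that nothing particular to fully methylated islands is read from these shares. Partly methylated islands were called more often, with 119 lower (19.16%) and 86 higher (13.8%) in HOM against WT. The split of the calls depends on the scale. With the levels scaled to equal open sea, HOM against WT gave 27 lower and 61 higher. With the unmethylated shares so scaled, an alternative added after the data were seen, 84 were lower and 48 higher. When the counts of an island were reduced to whole reads, by dividing them by the CpGs that 150 bp of it contain, so that a read counts about once, 0 fully methylated islands were called in any comparison by the same Fisher's exact test. At an unadjusted p below 0.05 with a difference of 10 points, 1 was lower in HOM than in WT and 0 were found in the other comparisons and directions. A median of 9 divided reads in HOM and 8 in WT then remained per island, and only 2 of all 16376 islands were called for HOM against WT.

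The strongest called losses in HOM are named here, and nothing is read from their place in genes. By midpoint, 59.7% of all fully methylated islands were inside a protein-coding gene. The island of Lima1, an actin-binding protein gene on chromosome 15, which also carries Kmt2d, stood at 66.1% in HOM, 92.2% in HET and 94.4% in WT from 127, 128 and 108 CpG reads (HOM minus WT -28.3 points, -37.4 to -18.6). Clec3b, which encodes the plasma protein tetranectin, had 71.8% in HOM, 94.0% in HET and 97.9% in WT (-26.1, -32.2 to -19.9). In both, HET stayed near WT, and the intervals of HOM minus HET lay below 0 as well. Arhgef18, a guanine nucleotide exchange factor gene, had 72.1% in HOM, 95.8% in HET and 97.7% in WT from 61, 120 and 131 CpG reads. An island 4845 bp from Tekt5 had 70.8% in HOM, 84.5% in HET and 95.7% in WT. The deepest of the group was a 1251 bp island with 106 CpGs in Tmtc1 (chr6:148354288-148355538), at 68.4% in HOM, 83.7% in HET and 91.3% in WT from 940, 939 and 483 CpG reads (-22.9, -26.7 to -18.8). HET lay between HOM and WT there and at Tekt5. By position, the 74 calls comprised 43 of the 1011 body islands, 10 of the 664 intergenic ones, 7 of the 96 near 3′ ends, 4 of the 81 near starts, 5 of the 139 in non-coding genes and 5 of the 41 at gene ends of unknown strand.

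In the strongest called gains WT was the lowest library. The ranking largely sets this, since fully methylated islands have little room to rise. The island in Cldn4, a tight junction gene, stood at 91.7% in HOM, 90.8% in HET and 65.8% in WT from 72, 163 and 111 CpG reads (HOM minus WT 25.9 points, 14.0 to 36.1). Ttc28 had 94.5% in HOM, 94.0% in HET and 71.4% in WT, and Nck2, an adaptor of receptor signalling, had 97.8% in HOM, 99.0% in HET and 75% in WT. Pdxdc1 had 92.6% in HOM, 86.2% in HET and 70.3% in WT, and Rgma, a guidance molecule gene, had 91.8, 80.6 and 73.3%. HOM and HET were close to each other at Cldn4, Ttc28 and Nck2, whose HOM minus HET intervals included 0. Hpcal4, a neuronal calcium sensor gene, was called higher in HET than in WT, with 89.5% in HOM, 95.9% in HET and 74.1% in WT, and its HOM minus HET interval (-15.6 to 0.87) included 0 too.

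In some islands HET stood apart from both other libraries. Npsr1, 10856 bp away from its island, had 70.8% in HOM, 95.9% in HET and 74.5% in WT. Dock6, an exchange factor gene, had 94.5% in HOM, 76.4% in HET and 95.7% in WT, and an island 46836 bp from Efcab11 had 82.2, 68.0 and 95.2%. At Dock6 HET alone was low, with a HET minus WT difference of -19.4 points (-27.8 to -11.3). Bend3 and an island 48691 bp from Nus1 had the same shape, Bend3 with 92.6% in HOM, 79.7% in HET and 96.7% in WT, and the island near Nus1 with 96.3, 82.1 and 100%. Cnp, a myelin enzyme gene, was low in both mutant libraries, with 79.4% in HOM, 73.4% in HET and 90.4% in WT. Among HOM against HET calls, C77080 (97.5% in HOM, 76.9% in HET and 90.2% in WT), Pxdn (97.5, 81.6 and 100%), Arl14ep (97.6, 84.6 and 87.9%, at 42001 bp from the gene) and Crbn (98.2, 86.0 and 92.4%, at 292320 bp) were higher in HOM, and Sbno2 (72.7, 96.7 and 92.0%) was lower.

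CpGs that read like sequence variants were counted, but how frequent variants are in these islands cannot be read from the counts. Of 59806 CpGs in fully methylated islands, 15318 had at least 5 reads in each library. Of these, 0 were at 5% or less in every library, and 1 was at 5% or less in HOM alone with 60% or more in another library.

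The flanks of fully methylated islands were methylated too, unlike those of unmethylated islands, but less than the islands themselves. Pooled over all reads, the level in the island was 90.9% in HOM, 92.7% in HET and 93.0% in WT. It was 86.0% in HOM, 88.4% in HET and 88.9% in WT in the outer border, the nearest 500 bp outside the edge. It was 81.2, 83.5 and 84.0% in the shore (500 to 2000 bp), and 79.2, 81.8 and 82.1% in the shelf (2000 to 4000 bp). The levels thus approached those of the open sea with distance in each library. Over 2305 outer borders with enough reads, at 1453 islands, the border minus island difference averaged -4.96 points in HOM, -3.97 in HET and -3.97 in WT, with standard deviations of 10.1, 9.55 and 9.94. The border was below the island in 70.9% of cases in HOM, 69.2% in HET and 66.2% in WT, and at 80% or more in 82.1, 89.2 and 89.3%. Borders of unmethylated islands averaged 16.3% in HOM, 17.6% in HET and 17.7% in WT.

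**Figure D5:**
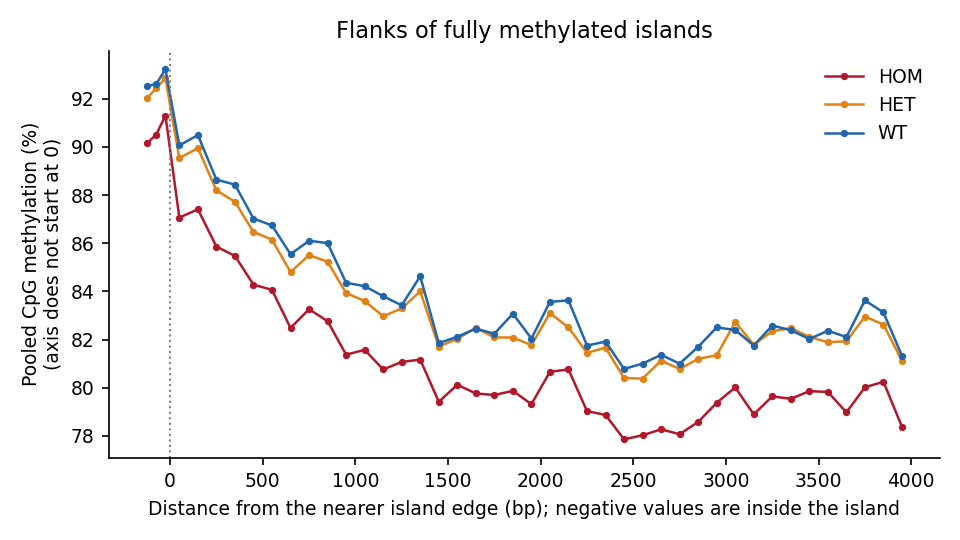
Pooled level (vertical axis, %, not starting at 0) by distance from the nearer edge of fully methylated islands (horizontal axis, bp, negative inside the island) in HOM, HET and WT. Within the distances drawn, all 3 lines are highest at the inner edge (91.3% in HOM, 92.9% in HET and 93.2% in WT). They fall outward toward the open sea, with HOM below HET and WT throughout. The lines reach only a short way into the island. Deeper than 200 bp, which only the longer islands reach, the level was 90.5% in HOM, 93.1% in HET and 93.9% in WT.

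In percentage points the HOM difference was larger in the borders than in the islands as a whole, whose levels were higher. Pooled over reads, HOM minus WT was -2.91 points in the outer border and -1.99 in the inner 100 bp at an edge. It was -3.41 (-3.91 to -2.91) deeper than 200 bp, which only the longer islands reach. Borders had a mean HOM minus WT difference of -3.07 points (-3.28 to -2.85), HET minus WT one of -0.51 (-0.70 to -0.31), and HOM minus HET one of -2.56 (-2.76 to -2.36). The island mean of HOM minus WT was 1.14 points nearer 0 than that of the borders (0.87 to 1.42), and that of HET minus WT was 0.22 points nearer (-0.04 to 0.47). These contrasts set all 2032 islands against the borders of 1453 of them, without pairing. Paired at those 1453 islands, border minus island averaged -4.96 points in HOM and -3.97 in WT. As a ratio the order was the reverse, since the unmethylated share in HOM was 1.31 times that in WT in the islands and 1.26 times in the outer borders. With the levels scaled to equal open sea, the HOM minus WT difference turned to 2.08 points in the islands and 0.71 in the borders, HET minus WT to 0.47 and 0.22, and HOM minus HET to 1.61 and 0.49.

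A few fully methylated islands stood next to unmethylated DNA. A border under 50% occurred in 22 cases in HOM, 26 in HET and 27 in WT, and under 20% in 4, 3 and 7. The lowest, averaged over the libraries, were at 5.46% on 1 side of an island in Arhgap21, a GTPase activator gene (chr2:20899896-20900209), whose own level was 94.2%, at 11.6% beside an island near Ubl4b and at 14.9% beside one near Catip. Those at Zswim4 (17.4%), Zfp385a (22.2%) and Foxs1 (22.2%) followed. Another island lay within 4000 bp of 361 fully methylated islands (17.8%), and the nearest one was itself fully methylated in 128, partly methylated in 20, unmethylated in 125 and under the depth limit in 88.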

How the data were processed

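Methylation calls came from whole-genome bisulfite libraries (200 ng of DNA sheared to about 800 bp, paired 150 bp reads, per the labels' protocols). The authors deposited 2 counts for every CpG, the methylated reads and all covering reads. Both are raw counts, as the values show, and are named per the file headers. The labels describe 9 samples: 2 of splenic B cells for each of 3 genotypes, and 1 of blood per genotype, which was not analysed here. Each genotype has 1 pair of columns for B cells. The sources used here do not say whether such a pair stems from 1 of the 2 samples or from both. No further per-sample columns existed (0). Per the submitters' processing notes, builds include mm10, and tools were Bismark with Bowtie2, Trim Galore 0.2.8 and Picard 1.91, or BWA 0.7.13, MethylDackel and Picard 2.3.0. The set that made the columns, and any removal of duplicate reads, are not given there.

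Islands were found from CpG positions alone, without a genome sequence, repeat mask or GC test. A level divides the summed methylated reads of a region by its summed covering reads. Genes, strands and promoters came from RefSeq tables of GRCm38.p6, the assembly of mm10, in which all 315811 CpGs of the promoter sequences matched a position of the table. Strand was known for 16456 protein-coding genes. Promoters printed are those of named islands that hold the gene start, except that of Dpep3. An island carries the symbol of the protein-coding gene over its midpoint, otherwise of the nearest one.

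A call requires levels 10 points apart and a Fisher's exact test of the CpG reads (two-sided) below 0.05 after Benjamini-Hochberg adjustment over all 16376 tested islands. With 1 library per genotype it compares libraries. Intervals are at 95%, by Wilson for single levels, by Newcombe for their differences and by the normal formula for means over islands. They cover counting error only, and treat as independent the CpGs of a read and reads that PCR may have copied. The calling step was tested on simulated data. Named islands are the 5 greatest called differences in each direction and comparison with 60 or more CpG reads in both libraries, the longest and CpG-richest islands, and up to 4 per gene list. Not all of them are described. The islands and the gene lists were chosen with earlier results of these data known. Alternatives changed depth, level, length, density, border width, size of difference, averaging and scaling. Scaling to equal open sea multiplied the levels of HOM and HET by the open sea level of WT over their own. The scaled levels behind the means were not capped, so that some HOM and HET islands exceeded full methylation. The tools were Python 3.11.15, numpy 2.4.6, pandas 2.3.3, scipy 1.17.1 and matplotlib 3.10.9.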

Additional observations from a re-analysis of the deposited data

How the results depend on the processing

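No paired analysis was possible because the table holds 1 set of counts per genotype with no replicate number, and for the same reason fits over replicates and values without a replicate could not be run. The HOM minus WT mean was -1.92 points, the HET minus WT mean -0.29 and the HOM minus HET mean -1.63. With levels scaled to equal open sea, without a cap at full methylation, they turned to 2.08, 0.47 and 1.61. Those of the outer borders turned to 0.71, 0.22 and 0.49. The direction of these means thus depends on how the level of the whole library is taken out. With the unmethylated share scaled in that way, an alternative chosen after seeing the data, the means were -0.52, -0.036 and -0.49 points, and the calls were 48 higher for HOM against WT, 65 higher and 48 lower for HET against WT and 35 higher for HOM against HET. Islands over 500 bp (306) gave -1.18, 0.23 and -1.41 points, a level of 90% or more gave -1.59 for HOM minus WT and -1.22 for HOM minus HET, and at least 10 CpG reads gave -1.45 for HOM minus HET. With at least 60 CpG reads there were 1326 fully methylated islands, the border mean of HOM minus HET was -2.34, and 3 islands were called higher in HOM than in HET.

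Calls are given as higher and lower for HOM against WT, HET against WT and HOM against HET. At least 8 CpGs per 100 bp (832 islands, 67.8% inside genes) gave 6 and 31, 9 and 6, and 1 and 29. Islands over 500 bp (62.4% inside genes) gave 1 and 9, 1 and 2, and 0 and 6. A level of 90% or more gave 6 and 33 for HOM against WT, 6 and 4 for HET against WT, and 26 lower for HOM against HET. A level of 70% or more gave 28 higher for HOM against WT, 38 and 25 for HET against WT and 14 higher for HOM against HET. A difference of 20 points gave 6 and 18, 7 and 3, and 1 and 13, and one of 5 points gave 13 higher for HOM against HET. Members chosen by the library not compared gave 20 higher for HOM against WT. Levels scaled to equal open sea gave 61 and 27 for HOM against WT, 34 higher for HET against WT, and 60 and 32 for HOM against HET. Counts reduced to whole reads gave 0 in each, where an unadjusted p below 0.05 with the 10 points was met by 1 island, lower in HOM than in WT. The border minus island difference was -6.66 in HOM, -5.80 in HET and -5.55 in WT with borders of 1000 bp, -3.06, -2.25 and -2.42 with borders of 200 bp, and -5.63, -4.49 and -4.35 at a level of 90% or more. The causes of these changes were not tested, beyond the smaller number of islands or reads that a stricter limit leaves. Of 163 values under alternatives, 88 stayed near the main value. For counts this means within a set factor of the main count, and for means and shares inside the main interval. Another 7, all means, changed sign, and the rest changed further in size only. Depth limits single islands, since the median fully methylated island held 108 CpG reads in HOM, 133 in HET and 97 in WT.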
